A study of Mus musculus with 6 samples.

Results

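The enzymes that build heme and the enzyme that opens its ring were followed in 2 sorted mouse bone marrow progenitor populations. The 9 genes were Alas1, Alas2, Alad, Uros, Urod, Cpox, Ppox and Fech of heme synthesis and Hmox1 of heme breakdown. They were chosen by name, with the difference between the populations already known, and were matched by Ensembl identifier to 9 of the 22271 genes in the count table. The populations were CD27 low MOP and CD27 high MODP, sorted by flow cytometry from bone marrow of C57BL/6JRj mice. The sample titles mark all libraries as WT, and neither treatment nor age is given in the sources used here. Each population had 3 libraries, made from TriZol-extracted RNA with a TruSeq RNA kit. The series' title places a bipotent progenitor of macrophages and osteoclasts downstream of one that also yields dendritic cells, and the design compares MOP with MODP. Whether the libraries came from separate or pooled animals is not given, so the spread between libraries may be partly technical.

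Heme is a porphyrin ring that holds iron. Its synthesis starts in the mitochondrion, where 5-aminolevulinate synthase joins glycine to succinyl-CoA, runs through the cytosol, and ends in the mitochondrion, where ferrochelatase inserts the iron. Alas1 encodes the synthase of most tissues and Alas2 that of erythroid cells. In granulocyte and macrophage precursors heme serves, among others, myeloperoxidase and the phagocyte oxidase, and macrophages break heme down with heme oxygenase 1.

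The libraries held 10701425 to 15892640 counts. Values are CPM, read counts relative to the library's total scaled by TMM (trimmed mean of M values). Cd27, the gene of the sort marker, stood at 4.56, 3.52 and 3.64 CPM in MOP and at 35.3, 38.9 and 38.6 CPM in MODP, so the labels and the sort gene matched in every library. Markers of other marrow cells were present. Genes of basophils and mast cells summed to 3167.1 to 5042.4 CPM in MOP and 513.8 to 1088.9 CPM in MODP. Neutrophil genes summed to 2815.5 to 11664.6 CPM in MOP and 2166.4 to 16707.9 CPM in MODP, highest in replicate 2 of each population.

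Alas1, one of the synthases of the first step, stood apart from the rest. It was lower in MOP, while the other 8 enzymes had log2 fold changes above 0, as had 6274 of the 12850 tested genes. By its mean per exon length, Alas1 was the most abundant of the 9 transcripts in both populations. Of the 9 enzymes, 3 were past the edgeR threshold as higher in MOP (Alad, Cpox and Fech) and 1 as lower (Alas1), where 16.3% of all 12850 tested genes were called higher and 14.9% lower. Without replicate 1 or replicate 2 of MOP, Cpox was the 1 enzyme still called higher. The libraries did not overlap for 4 enzymes higher in MOP, against 23.8% of all tested genes, and for 1 lower in MOP, against 23.8% of them. The median log2 fold change was 0.35 over the 9 enzymes and -0.01 over all tested genes. Because the enzymes were chosen with this contrast known, these values describe them and no p is given for them. In bulk RNA of a sorted population, fewer cells of a type and less RNA per cell cannot be told apart.

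**Figure D1:**
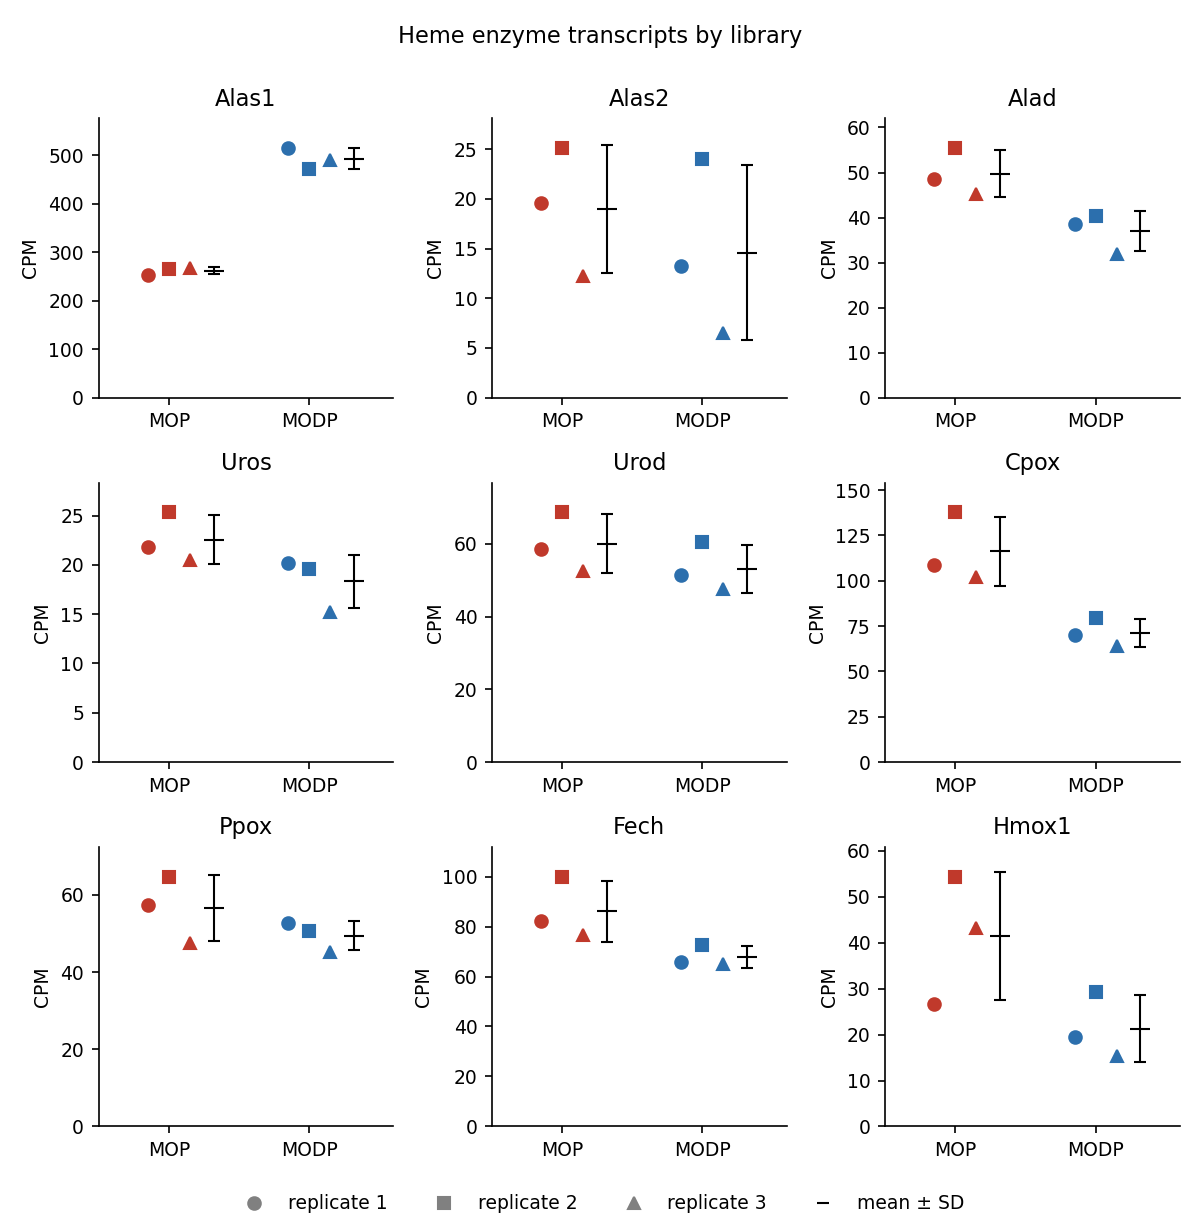
CPM of each heme enzyme in the 3 MOP libraries (left) and the 3 MODP libraries (right), with replicate numbers as symbols and the mean ± SD beside them. Alas1 stood at 253 to 267 CPM in MOP, below the 472 to 515 CPM in MODP, while Alad, Uros, Cpox and Fech were higher in every MOP library than in any MODP library.

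Alas1 (ENSMUSG00000032786, chromosome 9), which catalyses the rate-limiting step of heme synthesis outside the erythroid lineage, stood at 253, 265 and 267 CPM in MOP and at 515, 472 and 491 CPM in MODP. Every MOP library lay below every MODP library, by a wide margin relative to the spread within a population. The means were 262 ± 7.47 CPM in MOP and 493 ± 21.6 CPM in MODP (SD, n = 3 each), a log2 fold change of -0.91 ± 0.06 (SE), or 1.88-fold lower. The counts behind these values were 3444 to 4145 in MOP and 5024 to 6996 in MODP.

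Alas2 (ENSMUSG00000025270, chromosome X), the erythroid synthase, stood at 19.6, 25.1 and 12.3 CPM in MOP and at 13.2, 24.0 and 6.53 CPM in MODP. The populations overlapped, and replicate 2 was the highest library in each. The means of 19.0 ± 6.45 CPM in MOP and 14.6 ± 8.84 CPM in MODP (SD, n = 3 each) gave a log2 fold change of 0.40 ± 0.54 (SE), within the spread between libraries. Without MODP replicate 2 the log2 fold change was 0.96, and without MODP replicate 3 it was 0.03. The ratio of Alas1 to Alas2 CPM was 12.9, 10.5 and 21.8 in MOP and 39.0, 19.6 and 75.2 in MODP. It was lower in MOP in each same-numbered pair, but MOP replicate 3 stood above MODP replicate 2.

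The windows before the starts of Alas1 and Alas2 show how the genes for the same reaction differ in sequence, and that of Cpox is shown as the synthesis gene with the largest positive log2 fold change. Each is the 250 bases before a RefSeq transcript start, written 5′ to 3′ on the gene's strand (build GRCm38.p6), at chr9:106247955-106248204 (minus strand) for Alas1, chrX:150547167-150547416 (plus strand) for Alas2 and chr16:58669958-58670207 (plus strand) for Cpox. Capitals mark matches, on either strand, to 6 sets of letters. The motif of zinc finger factors of the Gata family was searched as AGATAA and also as TGATAA. The box bound by Klf factors was searched as CCACCC, the core promoter box as TATAAA, and the antioxidant response element, to which Nfe2l2 and Bach1 bind, as TGACNNNGC. The NRF1 motif was the last.
Alas1: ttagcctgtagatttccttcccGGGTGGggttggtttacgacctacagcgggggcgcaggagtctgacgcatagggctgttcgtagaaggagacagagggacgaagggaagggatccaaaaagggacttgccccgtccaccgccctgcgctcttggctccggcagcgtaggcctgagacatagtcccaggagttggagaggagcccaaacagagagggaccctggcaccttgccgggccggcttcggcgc
Alas2: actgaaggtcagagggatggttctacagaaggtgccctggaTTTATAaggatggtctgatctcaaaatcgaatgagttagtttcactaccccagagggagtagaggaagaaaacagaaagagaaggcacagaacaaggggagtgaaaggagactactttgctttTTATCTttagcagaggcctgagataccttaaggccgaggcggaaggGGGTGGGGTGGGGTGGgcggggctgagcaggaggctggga
Cpox: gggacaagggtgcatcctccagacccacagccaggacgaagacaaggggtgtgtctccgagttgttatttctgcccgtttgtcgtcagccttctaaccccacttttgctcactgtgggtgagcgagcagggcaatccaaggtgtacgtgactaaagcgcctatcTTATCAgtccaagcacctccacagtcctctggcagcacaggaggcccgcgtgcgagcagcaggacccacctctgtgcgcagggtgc

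The Alas2 window held 1 AGATAA match, at positions -86 to -81 counted from the base before the start. It also held 3 CCACCC matches on the opposite strand at -40 to -25, each sharing a base with the next, and 1 TATAAA match at -209 to -204. The Cpox window held 1 TGATAA match at -86 to -81. Of the windows of Uros, 1 held an NRF1 match at -47 to -38 and the other a TGATAA match at -68 to -63. The Alas1 window shown held 1 CCACCC match, and the window of the second RefSeq start of Alas1 held 2 NRF1 matches. Over 32851 RefSeq windows of the same length, AGATAA occurred in 9.99%, TGATAA in 7.94%, CCACCC in 28.1%, TATAAA in 12.4%, TGACNNNGC in 10.2% and the NRF1 motif in 3.74%. RefSeq windows were at hand for 7 of the 9 genes, and neither window of Alad nor those of Urod and Ppox held any of these letters. A match is a description of the sequence and not a binding site.

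Alas2 messenger RNA also carries an iron-responsive element, a hairpin in the leader to which iron regulatory proteins bind. It shares the element with the ferritin genes Fth1 and Ftl1 and with the iron exporter gene Slc40a1, whose levels are given further on. The 27 bases around each loop, from GENCODE M21 transcripts, are shown with the loop in capitals.
Alas2: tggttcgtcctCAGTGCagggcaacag
Fth1: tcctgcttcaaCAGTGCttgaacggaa
Ftl1: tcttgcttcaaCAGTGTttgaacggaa
Slc40a1: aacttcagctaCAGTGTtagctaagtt
The loops of Alas2 and Fth1 read CAGTGC and those of Ftl1 and Slc40a1 read CAGTGT. The same search found no such hairpin in the leaders of Alas1 transcripts.

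The cytosolic steps were at similar or slightly higher levels in MOP. Alad (ENSMUSG00000028393), which condenses the product of the synthase into a pyrrole, stood at 48.7, 55.4 and 45.1 CPM in MOP and at 38.7, 40.4 and 31.9 CPM in MODP. Every MOP library exceeded every MODP library, and the log2 fold change was 0.43 ± 0.11 (SE). Uros (ENSMUSG00000030979), which closes the ring as uroporphyrinogen III, stood at 21.8, 25.3 and 20.5 CPM in MOP and at 20.2, 19.5 and 15.2 CPM in MODP. The populations of Uros were apart by less than 1 CPM at their nearest libraries, with a log2 fold change of 0.30 ± 0.13 (SE). Urod (ENSMUSG00000028684), which trims the side chains of the ring, stood at 58.7, 68.7 and 52.6 CPM in MOP and at 51.4, 60.5 and 47.5 CPM in MODP. The Urod libraries overlapped, with a log2 fold change of 0.18 ± 0.12 (SE).

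The last steps lie in mitochondria. Cpox (ENSMUSG00000022742), which oxidises coproporphyrinogen, stood at 109, 138 and 102 CPM in MOP and at 70.3, 79.6 and 64.1 CPM in MODP. Its populations were apart, with means of 116 ± 18.9 CPM in MOP and 71.3 ± 7.84 CPM in MODP (SD, n = 3 each) and a log2 fold change of 0.71 ± 0.13 (SE), or 1.63-fold higher. Ppox (ENSMUSG00000062729), which makes protoporphyrin IX, stood at 57.3, 64.6 and 47.6 CPM in MOP and at 52.6, 50.5 and 45.2 CPM in MODP. The Ppox libraries overlapped, with a log2 fold change of 0.20 ± 0.11 (SE). Fech (ENSMUSG00000024588), the ferrochelatase, stood at 82.2, 99.9 and 76.5 CPM in MOP and at 65.8, 72.7 and 64.8 CPM in MODP. Every MOP library of Fech exceeded every MODP library, with a log2 fold change of 0.35 ± 0.10 (SE).

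Summed over Alad, Uros, Urod, Cpox, Ppox and Fech, the libraries held 377, 452 and 345 CPM in MOP and 299, 323 and 269 CPM in MODP. Alas1 alone came to 0.671, 0.587 and 0.775 of that sum in MOP and to 1.72, 1.46 and 1.83 of it in MODP. The ratio was lower in every MOP library than in any MODP library. It is on the CPM scale, not per length, so it compares the populations and not the levels of the genes.

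The gene of heme breakdown among the 9 had a wide spread between libraries. Hmox1 (ENSMUSG00000005413), which opens the ring to biliverdin and frees iron, stood at 26.8, 54.3 and 43.2 CPM in MOP and at 19.4, 29.3 and 15.3 CPM in MODP. MOP replicate 1 fell below MODP replicate 2, so the populations overlapped. The means were 41.4 ± 13.9 CPM in MOP and 21.3 ± 7.20 CPM in MODP (SD, n = 3 each), a log2 fold change of 0.97 ± 0.36 (SE) that was not past the threshold.

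**Figure D2:**
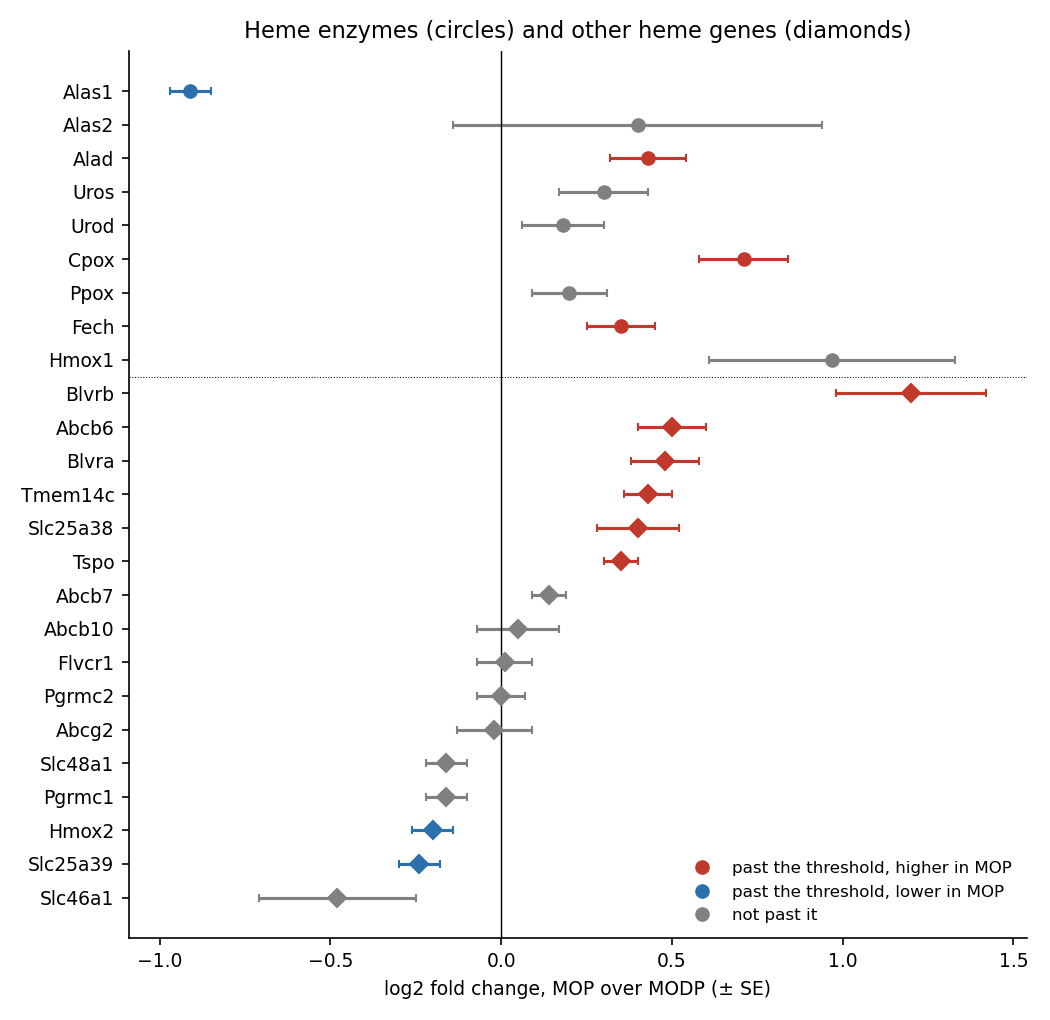
Log2 fold change of MOP over MODP with its standard error, for the 9 heme enzymes in pathway order (circles) and for 16 of the 17 other tested genes of heme synthesis, breakdown and transport (diamonds), coloured by whether edgeR called them at an adjusted p under 0.05. Alas1 lay at -0.91 and all other enzymes above 0, with Hmox1 at 0.97 and Blvrb at 1.20.

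Same-numbered libraries of the populations deviated together from their means and were taken as pairs. Within pairs, Alas1 in MOP was 0.492, 0.562 and 0.544 of its MODP level. The other 8 enzymes were higher in MOP in all 3 pairs, a pattern held by 32.6% of all tested genes, while 33.4% were lower in MOP in all 3 as Alas1 was. The ratio ran from 1.05 to 1.88 for Alas2, from 1.55 to 1.73 for Cpox and from 1.38 to 2.82 for Hmox1. For Urod it stayed between 1.11 and 1.14, the narrowest range of the 9 in these pairs. With the pair number as a block, 6 enzymes were past the threshold as higher in MOP (Alad, Cpox, Fech, Hmox1, Urod and Uros) and 1 as lower (Alas1), where 21.2% and 19.8% of all tested genes were called in that fit. The sample titles give the third pair the same number as the first, and with their number as a block 4 were called higher (Alad, Cpox, Fech and Hmox1).

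**Figure D3:**
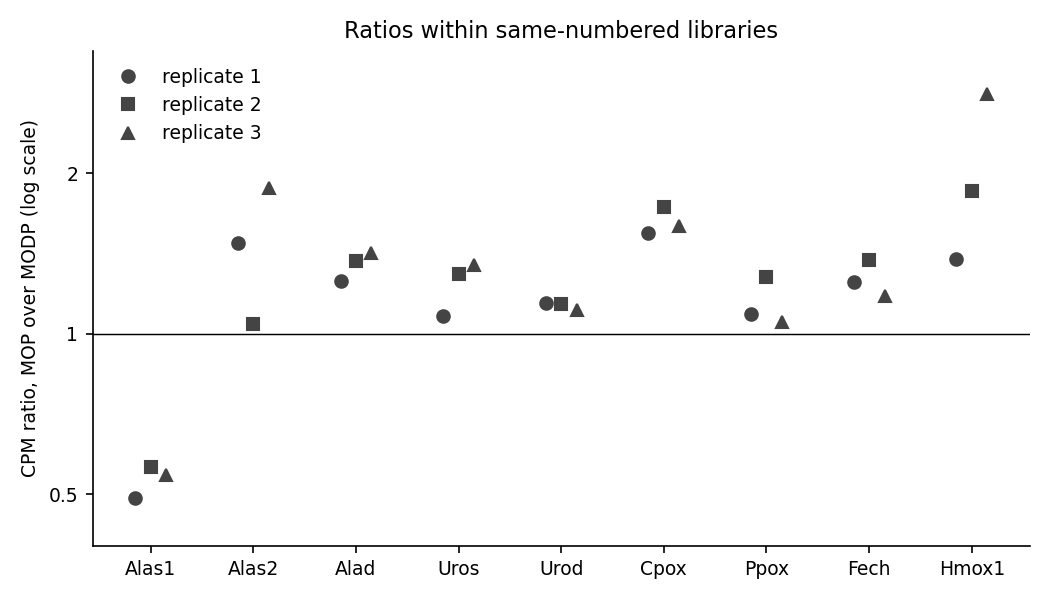
Ratio of MOP to MODP CPM within libraries of the same replicate number, on a log scale, for each heme enzyme; the line marks equal levels. All 3 points of Alas1 lie near 0.5 and all points of the other 8 enzymes lie above 1.

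Levels can be compared between genes only per length. Per kilobase of exon in GENCODE M21, Alas1 stood at 42.4 ± 1.21 CPM in MOP and 79.8 ± 3.50 CPM in MODP, above each of the other enzymes in both populations. In MOP it was followed by Alad (26.6 ± 2.80 CPM per kilobase), Hmox1 (23.7 ± 7.92), Urod (23.2 ± 3.12) and Cpox (17.4 ± 2.84), and in MODP by Urod (20.5 ± 2.57), Alad (19.8 ± 2.41), Hmox1 (12.2 ± 4.11), Ppox (10.95 ± 0.849) and Cpox (10.7 ± 1.18; SD, n = 3). Alad, Hmox1 and Urod lay within their spread of each other in MOP, as did Urod and Alad in MODP and Hmox1, Ppox and Cpox in MODP. Alas2, Uros and Fech were lowest in both, at 7.90 ± 2.68, 6.31 ± 0.693 and 6.23 ± 0.881 CPM per kilobase in MOP and 6.07 ± 3.68, 5.12 ± 0.754 and 4.90 ± 0.310 in MODP, and did not differ beyond their spread in MOP. Divided by the longest coding transcript instead, Alas1 remained first, at 77.0 CPM per kilobase in MOP and 145 in MODP. Hmox1 then fell behind Urod, Alad, Cpox and Ppox in MOP, so the order in the middle depends on the gene model.

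Some reads could belong to neighbours, since the strand setting of the counting is not given. Exons of Alas2 overlap those of Apex2 on the opposite strand over 12.9% of their length, and those of Ppox overlap B4galt3 over 17.5%. Apex2 stood at 14.8 CPM in MOP and 13.2 CPM in MODP. B4galt3 stood at 31.6 CPM in MOP and 30.9 CPM in MODP. Alas1 shares 12.1% of its 31-base words with an antisense transcript. Fech shares 14.1% of its 31-base words with transcripts of other genes, while Alad, Uros and Hmox1 share none.

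Markers of erythroid cells were higher in MOP, while Alas2 itself was not past the threshold. Of 17 erythroid genes measured, all were detected and tested, 11 rose in MOP and 0 fell, against 16.3% of all tested genes called higher and 14.9% lower. Epor, the erythropoietin receptor, stood at 15.7 ± 3.57 CPM in MOP and 6.63 ± 2.44 CPM in MODP (SD, n = 3 each; edgeR adjusted p = 0.018). The 4 globin genes on the list were not past the threshold, with Hbb-bt at 34.5 ± 12.5 CPM in MOP and 31.4 ± 28.5 CPM in MODP and Hba-a1 at 43.3 ± 14.0 CPM in MOP and 38.1 ± 27.8 CPM in MODP (SD, n = 3 each); both share most of their 31-base words with other globin genes. The 17 genes summed to 935, 1261.6 and 747 CPM in MOP and to 466, 796 and 268 CPM in MODP. In each population the libraries ranked alike by this sum and by Alas2, with replicate 2 highest and replicate 3 lowest. Alas2 came to 2.09%, 1.99% and 1.64% of the sum in MOP and to 2.84%, 3.02% and 2.44% in MODP. Relative to this sum Alas2 was lower in every MOP library. That share depends on the genes summed. The log2 fold change was 0.40 for Alas2, 0.16 for Hbb-bt, 0.20 for Hba-a1 and 1.26 for Epor. The part of erythroid cells in the levels of the heme enzymes was not tested.

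Hmox1 was set beside markers of mature macrophages, most of which were not past the threshold. The 13 genes of mature macrophages summed to 154, 292 and 241 CPM in MOP and to 138, 202 and 121 CPM in MODP. The libraries of each population ranked alike by this sum and by Hmox1. They ranked the same way by the sums of neutrophil and of eosinophil genes, so this order was not particular to macrophage genes. Of the 10 macrophage genes that were tested 1 rose (Adgre1, 49.7 ± 2.30 CPM in MOP and 23.4 ± 6.38 CPM in MODP, SD, n = 3 each, edgeR adjusted p = 0.0047) and 0 fell, against 16.3% of all tested genes called higher, and none of the 13 was at 0 in all libraries. C1qa, a complement gene of macrophages, stood at 6.40, 19.4 and 16.4 CPM in MOP and at 6.40, 10.6 and 4.98 CPM in MODP (edgeR adjusted p = 0.21). Hmox1 came to 17.4%, 18.6% and 17.9% of the macrophage sum in MOP and to 14.0%, 14.5% and 12.6% in MODP. Relative to this sum Hmox1 was higher in every MOP library. That share depends on the genes summed. The log2 fold change was 0.97 for Hmox1, 1.02 for Mrc1, 0.95 for C1qa and -0.12 for Cd163. The part of mature macrophages in the level of Hmox1 was not tested.

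**Figure D4:**
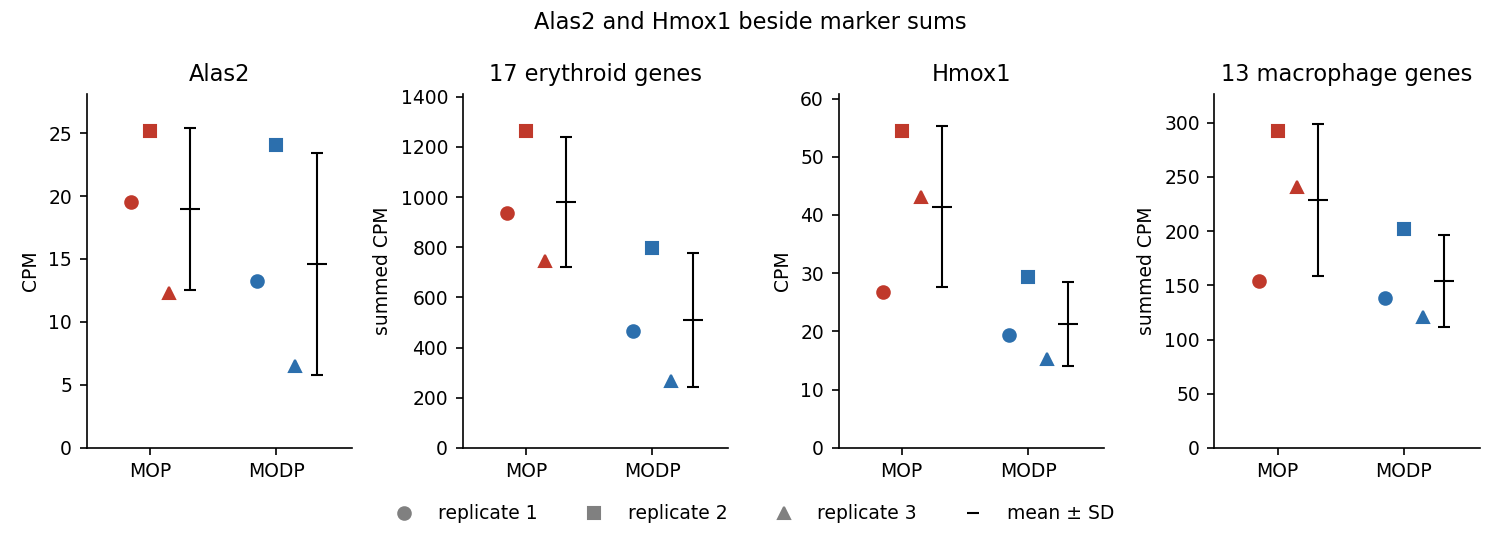
Alas2 beside the sum of 17 erythroid genes and Hmox1 beside the sum of 13 macrophage genes, in CPM, for MOP (left) and MODP (right) libraries with replicate numbers as symbols and the mean ± SD. In each population Alas2 and the erythroid sum were highest in replicate 2 and lowest in replicate 3, and Hmox1 ranked as the macrophage sum did. The sums of neutrophil and of eosinophil genes, not drawn here, ranked the libraries as Hmox1 did too.

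Genes that act beside the enzymes changed in both directions. Of 17 tested genes of a list of 18 for other steps of heme synthesis, breakdown and transport, 7 rose in MOP, 2 fell and 8 did not pass the test, where 16.3% of all tested genes were called higher and 14.9% lower. The median log2 fold change was 0.05, against -0.01 over all tested genes. The biliverdin reductase genes rose. Blvra stood at 36.5 ± 2.11 CPM in MOP and 26.1 ± 2.74 CPM in MODP (SD, n = 3 each), a log2 fold change of 0.48 ± 0.10 (SE, edgeR adjusted p = 0.0064). Blvrb stood at 42.1, 56.6 and 40.0 CPM in MOP and at 20.1, 25.4 and 15.2 CPM in MODP, with no overlap, a log2 fold change of 1.20 ± 0.22 (SE) and an edgeR adjusted p of 0.0083. Tmem14c, a mitochondrial protein needed for porphyrin import, rose by log2 0.43 ± 0.07 (SE, edgeR adjusted p = 0.0027), and Tspo, the porphyrin-binding translocator protein of the outer membrane, by 0.35 ± 0.05 (edgeR adjusted p = 0.0021). Blvra, Blvrb, Tmem14c and Tspo kept their calls in all 14 alternative analyses.

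The genes of this list that fell changed little. Hmox2, the constitutive heme oxygenase, stood at 37.7 ± 0.505 CPM in MOP and 43.5 ± 1.25 CPM in MODP (SD, n = 3 each; edgeR adjusted p = 0.042), and 49.4% of its 31-base words are shared, mainly with Cdip1. Its call was lost without any 1 of the 6 libraries (edgeR adjusted p 0.076 to 0.12). Slc25a39, a mitochondrial carrier, fell by 0.24 ± 0.06 (SE) on the log2 scale (edgeR adjusted p = 0.016), a call lost without replicate 1 or 2 of MOP or replicate 1 or 3 of MODP (edgeR adjusted p 0.0047 to 0.072 over the 6 fits).

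Of 18 tested genes of iron uptake, storage and export, 2 rose in MOP, 3 fell and 13 did not pass, a share of calls near the 31.2% over all tested genes. Ftl1, the ferritin light chain, stood at 217, 205 and 226 CPM in MOP and at 149, 135 and 141 CPM in MODP (log2 fold change 0.61 ± 0.06 SE, edgeR adjusted p = 0.00042), but 94.9% of its 31-base words occur in other genes, mainly ferritin pseudogenes. Ncoa4, the receptor that delivers ferritin to lysosomes, stood at 156, 159 and 155 CPM in MOP and at 211, 212 and 208 CPM in MODP (log2 fold change -0.43 ± 0.05 SE, edgeR adjusted p = 0.00054). Steap3, a reductase of endosomal iron, rose by log2 0.39 ± 0.09 (SE, edgeR adjusted p = 0.015). Slc25a37, mitoferrin 1, which brings iron into mitochondria, fell by 0.41 ± 0.10 (SE) on the log2 scale (edgeR adjusted p = 0.017), and Slc39a14, a metal importer, by 0.95 ± 0.23 (edgeR adjusted p = 0.015). The call for Slc25a37 was lost without replicate 1 or 3 of MOP or replicate 1 of MODP and that for Slc39a14 without replicate 1 of MODP (highest edgeR adjusted p 0.06 and 0.051). Of the other transcripts with the hairpin, Fth1 stood at 694 ± 115 CPM in MOP and 604 ± 91.8 CPM in MODP (SD, n = 3 each; edgeR adjusted p = 0.38, and 0.0057 with the pair number as a block), and Slc40a1 at 61.3 ± 25.5 CPM in MOP and 49.8 ± 14.7 CPM in MODP (edgeR adjusted p = 0.62). With the pair number as a block, 4 iron genes were called higher.

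Of 20 tested genes for factors known to act on heme enzyme genes or their products, 9 rose in MOP, 1 fell and 10 did not pass, where 16.3% of all tested genes were called higher and 14.9% lower. The median log2 fold change of the 20 was 0.20, against -0.01 over all tested genes. Klf1, the erythroid Klf factor, stood at 27.9, 36.3 and 25.6 CPM in MOP and at 10.9, 13.2 and 8.49 CPM in MODP (log2 fold change 1.47 ± 0.19 SE, edgeR adjusted p = 0.0015), and is also on the erythroid marker list. Mafg, a small Maf partner of Bach1 and Nfe2l2, rose by log2 0.49 ± 0.06 (SE, edgeR adjusted p = 0.0013). Eif2ak1, the heme-regulated kinase of translation, rose by 0.40 ± 0.06 (edgeR adjusted p = 0.0026). Bach1, a repressor of Hmox1 that heme inactivates, stood at 82.5 ± 6.58 CPM in MOP and 75.2 ± 2.26 CPM in MODP (SD, n = 3 each, edgeR adjusted p = 0.18). Nfe2l2 rose by log2 0.17 ± 0.05 (SE, edgeR adjusted p = 0.037), a call lost without any 1 of the 6 libraries (edgeR adjusted p 0.054 to 0.12). The gene that fell was Lonp1, a mitochondrial protease, by 0.21 ± 0.05 (SE) on the log2 scale (edgeR adjusted p = 0.014), a call lost without replicate 1 of MOP or of MODP (highest edgeR adjusted p 0.067). The sum of the basophil and mast cell genes was higher in every MOP library, and 7 of its 9 tested genes rose, against 16.3% of all tested genes (Mcpt8 stood at 922.1 ± 209.6 CPM in MOP and 138 ± 79.0 CPM in MODP, SD, n = 3 each; edgeR adjusted p = 0.018). The part of those cells in the calls was not tested.

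Of 18 tested genes for heme-containing proteins and for heme a synthesis, 1 rose in MOP, 1 fell and 16 did not pass, where 31.2% of all tested genes were called in either direction. Mpo, myeloperoxidase, stood at 7136.9, 7642.9 and 8735.6 CPM in MOP and at 14656.7, 13795.1 and 15765.4 CPM in MODP, with no overlap. It fell in MOP by 0.91 ± 0.08 on the log2 scale (SE, edgeR adjusted p = 0.00037), beside -0.91 ± 0.06 for Alas1 from the same libraries. A link between Mpo and Alas1 was not tested, and 14.9% of all tested genes were called lower. Cyp11a1, a heme enzyme of steroid synthesis, rose by log2 3.59 ± 0.41 (SE, edgeR adjusted p = 0.0037). It stood at 81.0 ± 23.1 CPM in MOP and 6.88 ± 3.37 CPM in MODP (SD, n = 3 each). Like the sum of basophil and mast cell genes, Cyp11a1 was lowest in replicate 2 within MOP and highest in replicate 2 within MODP. The part of those cells in its level was not tested. Cybb, the heme-binding subunit of the phagocyte oxidase, stood at 626, 806 and 612 CPM in MOP and at 266, 663 and 207 CPM in MODP (edgeR adjusted p = 0.29, and 0.0042 without MODP replicate 2). Without that library, which had the highest sum of neutrophil genes, 4 genes of the list were called higher and 2 lower.

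The genes most like Alas1, Alas2 and Hmox1 in their pattern were sought by Pearson correlation of log2 CPM over the 6 libraries among 8964 tested genes with a mean of at least 10 CPM over the 6 libraries. For Alas1 they were Fntb, Gpr171 and Tceal8 (r = 0.998 for each), all lower in MOP, and 1119 genes had an r above 0.9. For Alas2 they were Kdm6b, Tob1 and Arhgef3 (r = 0.993, 0.99 and 0.99), all highest in replicate 2 of their population, and 152 genes lay above 0.9. For Hmox1 they included Mrc1 and Mrpl52 (r = 0.992 and 0.989), with 196 genes above 0.9. Mrc1, a lectin of macrophages that is on the macrophage marker list, stood at 25.3 ± 8.71 CPM in MOP and 12.6 ± 3.85 CPM in MODP (SD, n = 3 each). These correlations hold the difference between the populations and the spread of the same 6 libraries, so they are a description.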

How the data were processed

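Sequencing counts of 3 CD27 low MOP and 3 CD27 high MODP libraries, grouped by the cell type label, were analysed. The deposited table gives whole-number counts of reads for each Ensembl gene, which the authors left unnormalized. TopHat 1.4 and HTSeq are named in the submitters' processing notes; build, annotation and strand setting are not stated there or in the labels. Symbols came from a table of Ensembl identifiers (20840 of 22271 matched).

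Genes were kept by edgeR's filterByExpr (12850 genes) and tested with edgeR 4.0.16 (quasi-likelihood, robust, TMM, group as the sole factor) under R 4.3.3, and p-values were adjusted by Benjamini-Hochberg across these genes (threshold 0.05). Every edgeR adjusted p and SE comes from this fit, which does not use the pairs, unless another is named. A gene not past the threshold in it may pass with the pair number as a block, as Hmox1, Uros and Urod did. The test was checked on simulated counts. DESeq2 1.42.0 was an alternative.

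The enzymes, lists and tests were chosen with earlier results of these data known. Genes named were the 9 enzymes, up to 3 called genes of each list in each direction, sort and marker genes, and the 3 genes most like Alas1, Alas2 and Hmox1. Blvrb, Fth1, Slc40a1, Bach1, Nfe2l2, Cybb, B4galt3 and Apex2 were named after values were seen. The ratios between genes and within pairs, the transcript length scale, the motifs and the sequences shown were also chosen after values were seen. A few genes covered by the rule enter the list counts and are not reported here. Replicates were numbered as in the deposited column names. Deviations from the population means, over 9415 genes, correlated at 0.58, 0.60 and 0.51 between same-numbered libraries and at -0.46 to 0.06 between others, so the numbers were taken as pairs; for the third pair the sample titles give another number than the columns. No libraries of a population agreed within sampling noise (chi-square per degree of freedom 7.35 to 34.7). Windows before transcript starts came from RefSeq (GRCm38.p6), by symbol, and 31-base words were looked up on both strands in all GENCODE M21 transcripts.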

Additional observations from a re-analysis of the deposited data

How the results depend on the processing

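Each comparison was repeated under 14 alternatives: other scalings (RLE and upper-quartile), DESeq2, no filter or a filter of 1 CPM in 3 libraries, without each library in turn, without replicate 2 of both populations, and with the replicate number of the columns or of the sample titles as a block. All 9 enzymes kept the sign of their fold change in all 14. Of 126 enzyme values under alternatives 113 stayed on their side of the threshold, 7 lost the call (Alad and Fech) and 6 gained it (Hmox1, Uros and Urod). The enzymes called higher numbered 6 with the replicate block by column number, which moved the count from 3, and 1 to 3 without a library: 1 (Cpox) without MOP replicate 1 or MOP replicate 2. Alas1 was called lower in all 14.

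Genes called over the whole table were 1281 to 2524 higher and 1036 to 2275 lower in the 6 fits without a library, lowest without MOP replicate 1. With the replicate block by column number, the other heme, iron, iron-sulfur, heme protein, regulator and Nfe2l2 target counts changed by over 1.5 times for iron genes higher (4), iron-sulfur genes higher (1), heme proteins higher (3) and lower (2) and regulators lower (2), and with the title number for heme proteins (3 higher, 2 lower) and regulators lower (2). Other heme genes called lower were 4 under upper-quartile scaling, 1 with DESeq2, 1 without a filter and 0 to 1 without a library. Heme proteins called higher were 2 with DESeq2, 3 (and 2 lower) without replicate 2 of both populations, and 1 to 4 (1 to 2 lower) without a library. Without a library, iron genes called lower were 1 to 3, regulators lower 0 to 2, and Nfe2l2 targets 1 to 5 higher and 1 to 2 lower. The cause of these shifts was not tested. The log2 ratio of mean marker sums, MOP over MODP, moved by less than the spread between libraries in all 42 recomputations, but that spread was wide for neutrophil and eosinophil genes. For neutrophil genes the ratio was -0.21, and it was 1.18 without MODP replicate 2, 0.15 without MOP replicate 1 and -0.94 without MOP replicate 2. For eosinophil genes it was 0.08, and it ran from -0.38 without MOP replicate 2 to 0.45 without MODP replicate 2.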

Other observations

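Genes known as targets of Nfe2l2, the factor that with Bach1 sets Hmox1 transcription, changed in both directions. Of 13 tested, 4 rose in MOP, 2 fell and 7 did not pass, where 16.3% of all tested genes were called higher and 14.9% lower. Their median log2 fold change was 0.21. G6pdx, which supplies NADPH, stood at 387 ± 11.9 CPM in MOP and 248 ± 36.8 CPM in MODP (SD, n = 3 each; edgeR adjusted p = 0.0027), and Nqo1, a quinone reductase, at 4.73 ± 1.31 CPM in MOP and 2.05 ± 0.747 CPM in MODP (edgeR adjusted p = 0.02). Taldo1, of the pentose phosphate pathway, rose by log2 0.28 ± 0.06 (SE, edgeR adjusted p = 0.013). Cbr1, a carbonyl reductase, and Txnrd1, a thioredoxin reductase, had log2 fold changes of -0.71 ± 0.15 and -0.28 ± 0.07 (SE) (edgeR adjusted p = 0.0086 and 0.013). The call for Nqo1 was lost without replicate 1 or 2 of MOP or replicate 1 or 3 of MODP, that for Taldo1 without MOP replicate 2 or MODP replicate 1, and that for Txnrd1 without MOP replicate 1 (highest edgeR adjusted p 0.077, 0.055 and 0.065).

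Of 14 genes of iron-sulfur cluster assembly, which supplies the cluster that ferrochelatase holds in mammals, 0 rose in MOP, 2 fell and 12 did not pass by edgeR, against 1 called higher with the replicate number as a block, and 31.2% of all tested genes were called in either direction. Ciapin1, an electron carrier of the cytosolic branch, stood at 62.8 ± 5.25 CPM in MOP and 81.2 ± 2.40 CPM in MODP (SD, n = 3 each; edgeR adjusted p = 0.0066). Fdxr, the ferredoxin reductase, stood at 24.0 ± 1.97 CPM in MOP and 31.8 ± 1.39 CPM in MODP (edgeR adjusted p = 0.0091). Eosinophil markers summed to 202 to 431 CPM in MOP and 188 to 385 CPM in MODP, and megakaryocyte markers to 156 to 218 CPM in MOP and 65.5 to 134 CPM in MODP; of the 6 megakaryocyte genes tested 1 rose and 1 fell.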
